A study of Mus musculus with 26 samples.

Results

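The genes described are 10 transcription factors and target genes of the Wnt pathway: Lef1, Tcf7, Tcf7l1, Tcf7l2, Axin2, Apcdd1, Nkd1, Sp5, Lgr5 and Rnf43. They were picked by symbol, through the Entrez identifiers of the deposited count table, and all 10 were found among its 24454 genes. RNA was sequenced from GFP-positive cells that had been sorted from dissected early gliomas of mice, in 26 libraries. GFP came from a Cre reporter at the Rosa locus (Rosa-CAG::GFP). All tumours, controls included, were driven by PDGF and had lost Trp53. The control tumours, with Notch genes intact, gave 6 libraries, Notch1-/- tumours 6, Notch2-/- tumours 5, Notch1-/-Notch2-/- tumours 5, and tumours that lacked Rbpj, the DNA-binding partner of all Notch receptors, 4. What drove Cre, how PDGF was delivered and how old the mice were is not stated in the labels. The labels also leave unsaid whether each replicate is a mouse of its own, and p-values then measure only the spread between these libraries, which may be technical.

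In canonical Wnt signalling, a Wnt protein binds a Frizzled receptor with a Lrp5 or Lrp6 co-receptor, the complex that destroys beta-catenin is inactivated, and beta-catenin enters the nucleus. There it binds the TCF and LEF proteins, which sit on target promoters and enhancers and otherwise hold Groucho co-repressors. Many targets are feedback inhibitors of the same pathway. In the brain the pathway is known above all in blood vessels, where Wnt7a, Wnt7b and Norrin from neural cells act on endothelial cells and hold up the blood-brain barrier, and in oligodendrocyte precursors, where it times differentiation. A sorted tumour fraction can therefore hold Wnt target RNA from both tumour cells and vessel cells.

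Library totals ran from 30868828 to 48103535 counts, and levels are given as CPM, which are counts scaled to a common library total by TMM. Rbpj was at 20.4 to 52 CPM in the libraries labelled Rbpj-/- against 52.9 to 68 in controls, and Notch2 at 6.14 to 8.58 against 9.42 to 16.4 in those labelled Notch2-/-. In the libraries labelled Notch1-/-Notch2-/-, Notch2 stood at 9.43 to 12.9 CPM and overlapped the controls. Notch1 was at 88.2 to 214 CPM in libraries labelled Notch1-/- against 71.2 to 148, and Trp53 RNA was present in all 26. Which exons were deleted is not stated in the labels, and counts over a whole gene cannot check a deletion of part of it. Markers of oligodendrocyte precursors, the cell type these gliomas resemble, were high in every library (summed over 11 genes, 7083 to 18272 CPM). Markers of other cells were also present. In controls 14 mature oligodendrocyte genes summed to 9271 to 24927 CPM, where the precursor genes summed to 9450 to 15932 CPM. There 10 genes of newly formed oligodendrocytes summed to 3904 to 9404 CPM, 15 endothelial genes to 51.2 to 183 CPM, and 15 microglia and macrophage genes to 362 to 1525 CPM. Sums over different genes do not measure shares of cells, and whether the oligodendrocyte RNA came from tumour cells was not tested. In 3 libraries both Xist and Ddx3y, a gene of the Y chromosome, reached 20 CPM (control replicate 6 and Notch2-/- replicates 3 and 4), and the comparisons that use them were also fitted without them. That fit tested 15723 genes. With the double receptor loss 3 of the 10 Wnt genes fell in it and 0 rose, where 16.3% of all genes fell and 15.9% rose. With Rbpj loss 1 fell (5.22% of all genes), with Notch1 loss 1 (10.7%) and with Notch2 loss 0 (0.0254%). The values of that fit stand beside the calls below.

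Per kilobase of the deposited gene length, Apcdd1 was the highest of the 10 genes, at a mean of 9.73 CPM per kilobase over the 26 libraries, followed by Tcf7l2 at 7.58, Rnf43 at 5.81 and Nkd1 at 5.47. Lgr5, Axin2, Tcf7l1 and Tcf7 came next, at 4.25, 4, 3.59 and 2.47 CPM per kilobase. Lef1 and Sp5 were rare, at 0.247 and 0.165 CPM per kilobase, and 9.55% and 6.78% of the 15617 genes tested lay below them. All 10 passed the filter on low counts. Of the 4 TCF and LEF factors, Tcf7l2 was thus the main one in this fraction and Lef1 the least abundant. The share of the variance of log2 CPM that lay between genotypes was 63.1% for Apcdd1, 57.7% for Lef1 and 57.4% for Sp5, against a median of 31.4% over all genes tested. It was 39.2% for Tcf7l2 and 26.6% for Tcf7l1, 24.2% for Nkd1, 23.5% for Rnf43 and 21.3% for Lgr5, and only 8.58% for Axin2 and 3.85% for Tcf7.

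**Figure D1:**
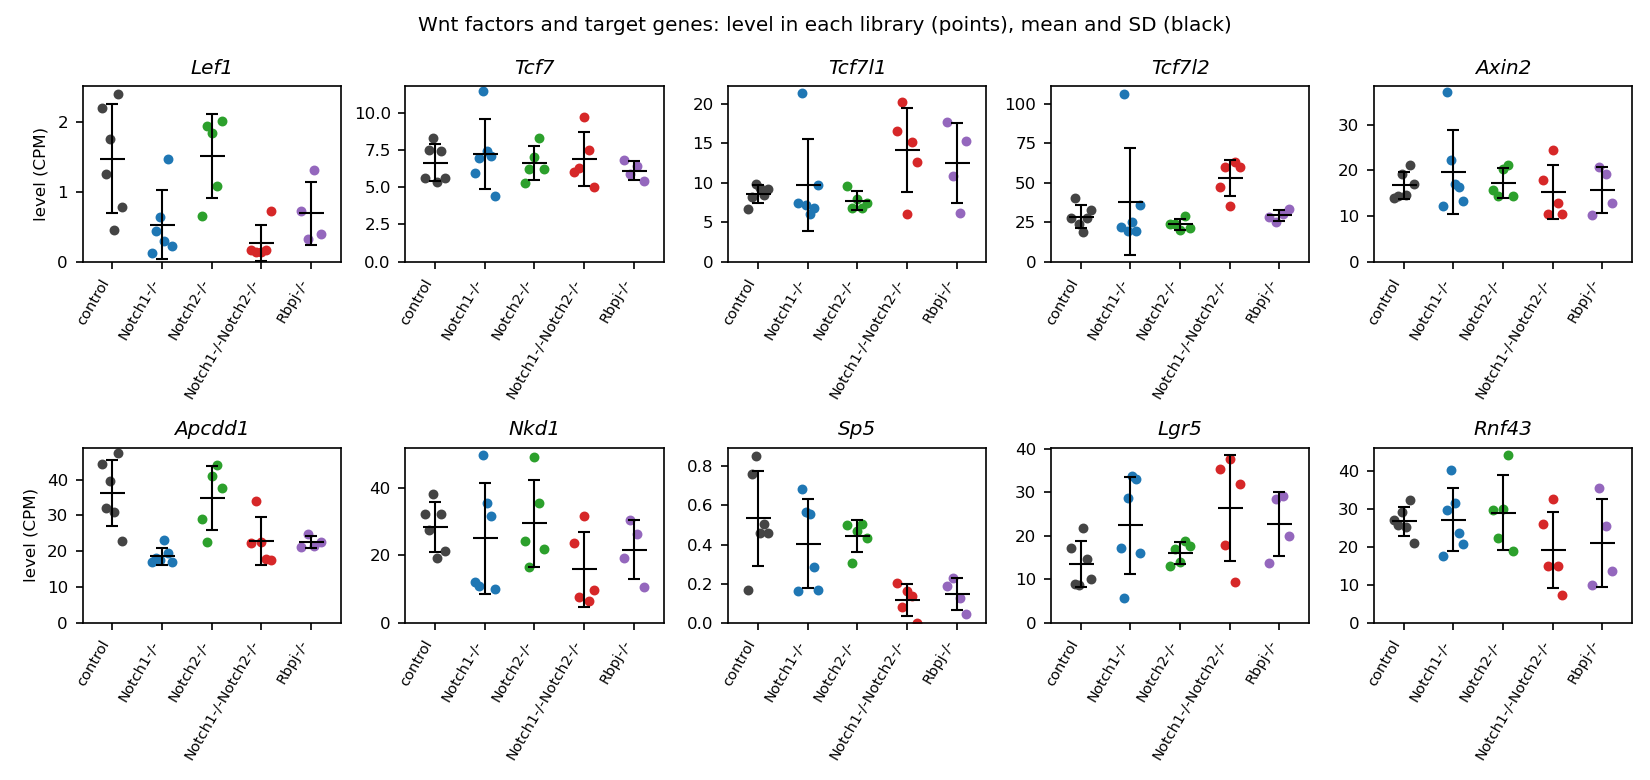
Level of each of the 10 genes in CPM (vertical axis, from 0, own scale in each panel) by genotype. Each point is a library and black marks give the mean and SD of the genotype. Sp5 and Lef1 are low in the Notch1-/-Notch2-/- libraries, Apcdd1 is low in Notch1-/-, Notch1-/-Notch2-/- and Rbpj-/- libraries, and for Axin2 and Tcf7 the range of each mutant genotype overlaps that of the controls.

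Lef1, Sp5 and Apcdd1 were the genes that fell, and Tcf7l2 and Lgr5 the genes that rose. Against control, 3 of the 10 fell with the double receptor loss (Lef1, Sp5 and Apcdd1) and 2 rose (Tcf7l2 and Lgr5), by the quasi-likelihood test of edgeR, adjusted over all genes by Benjamini-Hochberg. Over all genes tested in that comparison, 18.8% fell and 18.3% rose, so the number of calls does not set these 10 genes apart. With Rbpj loss 2 fell (Apcdd1 and Sp5) and 0 rose, where 7.25% of all genes fell and 7.97% rose. With Notch1 loss 1 fell (Apcdd1) and 0 rose, where 13.5% of all genes fell and 13.2% rose. With Notch2 loss 0 of the 10 passed by edgeR, DESeq2 or limma voom and 0 had an unadjusted edgeR p under 0.05, where 0.166% of all genes fell and 0.128% rose. The 4 comparisons share the control libraries. The median log2 fold change of the 10 genes was -0.30 for the double loss against 0.01 over all genes, -0.23 for Rbpj loss against 0.07, 0.07 for Notch1 loss against 0.03 and 0.01 for Notch2 loss against 0.01.

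**Figure D2:**
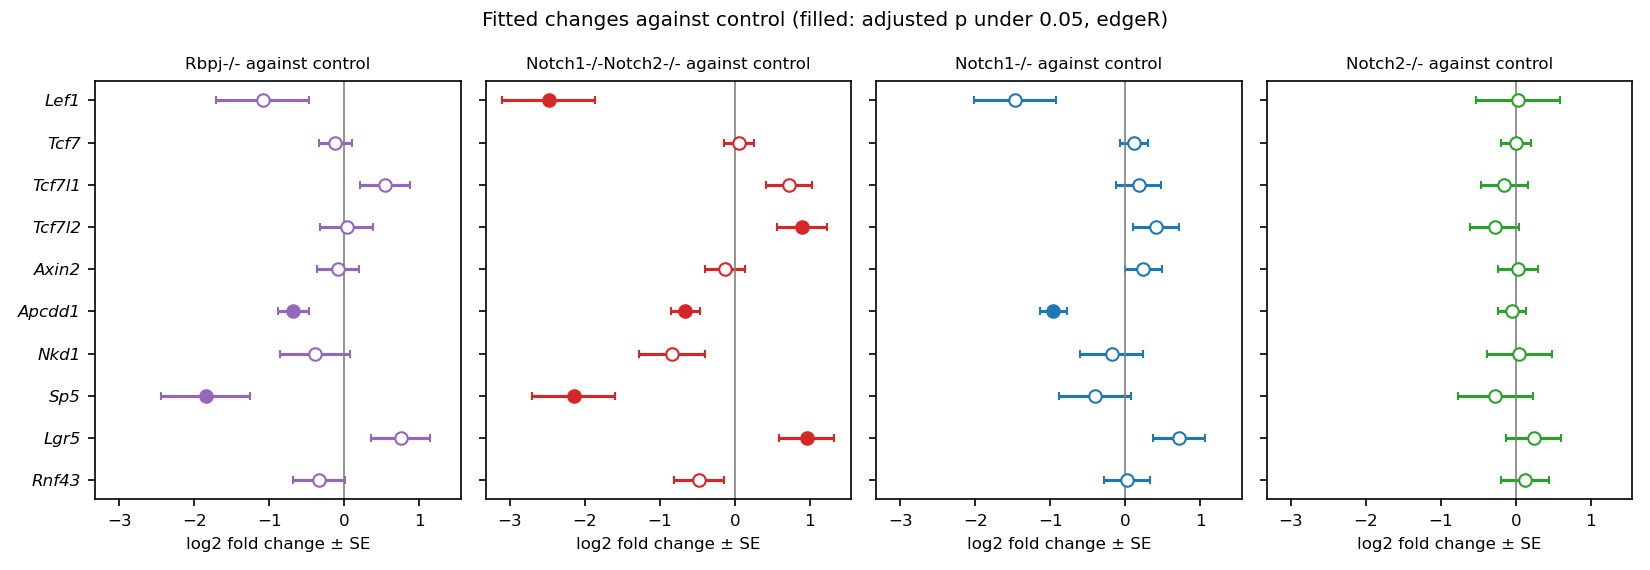
Fitted log2 fold change against control with its standard error (horizontal axis) for the 10 genes (vertical axis) in 4 genotypes. Filled symbols have an edgeR adjusted p under 0.05. Lef1 and Sp5 have the largest changes, at -2.48 and -2.15 in Notch1-/-Notch2-/-, and all 10 lie between -0.28 and 0.24 in Notch2-/-.

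Lef1 (Entrez 16842; chr3:131110297-131224357 in mm10) encodes a TCF/LEF factor that activates targets together with beta-catenin and is itself a Wnt target in brain endothelium. In the 6 control libraries it lay between 0.457 and 2.4 CPM, with a median of 1.51. The 5 Notch1-/-Notch2-/- libraries had 0.159, 0.132, 0.14, 0.164 and 0.718 CPM. Of these, 4 were below every control, and replicate 5 lay between the 2 lowest controls. The change was -2.48 ± 0.62 (log2 fold change ± SE, edgeR adjusted p = 0.00359), and it was called whichever of the 26 libraries was left out (-3.28 to -2.29, adjusted p at most 0.0129) and without the 3 libraries with both Xist and Ddx3y (-2.61, 0.00576). In Notch1-/- libraries Lef1 ran from 0.116 to 1.47 CPM with a median of 0.366, at -1.47 ± 0.55 (edgeR adjusted p = 0.0506). That value missed the threshold. It passed with DESeq2's size factors (adjusted p = 0.0463), DESeq2's Wald test (0.0246), limma voom (0.00373), or without control replicate 4 (0.0252), Notch1-/- replicate 5 (0.00811), Notch1-/-Notch2-/- replicate 5 (0.0356) or Rbpj-/- replicate 3 (0.046). The 4 Rbpj-/- libraries had 0.726, 0.329, 1.31 and 0.395 CPM (-1.09 ± 0.62, edgeR adjusted p = 0.235), and the 5 Notch2-/- libraries, at 0.655, 1.95, 1.85, 1.09 and 2.01 CPM, lay within the control range (0.03 ± 0.56, edgeR adjusted p = 0.985). By mean level the order was Notch2-/- at 1.51 ± 0.604 (SD, n = 5), control at 1.48 ± 0.776 (n = 6), Rbpj-/- at 0.69 ± 0.449 (n = 4), Notch1-/- at 0.53 ± 0.496 (n = 6) and Notch1-/-Notch2-/- at 0.263 ± 0.255 CPM (n = 5). No pair of neighbours in that order passed the test.

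Sp5 (Entrez 64406; chr2:70474923-70477726) is a zinc finger factor of the Sp family and a direct target of Wnt signalling. It was close to the limit of detection, with 7 to 36 counts a library in controls and 0 to 9 in Notch1-/-Notch2-/-, so its levels carry a large counting error. Controls ran from 0.169 to 0.853 CPM with a median of 0.482. The Notch1-/-Notch2-/- libraries had 0.205, 0.0795, 0.163, 0.137 and 0 CPM (-2.15 ± 0.55, edgeR adjusted p = 0.00426), a call that held in all 26 fits with a library left out and without the 3 libraries with both Xist and Ddx3y (-2.19, adjusted p = 0.0095). Rbpj-/- libraries had 0.187, 0.23, 0.129 and 0.0464 CPM (-1.85 ± 0.59, edgeR adjusted p = 0.0369). Control replicate 1, at 0.169 CPM, was the only control inside either range. The Rbpj-/- call was lost without any 1 of the 4 Rbpj-/- libraries or without control replicate 2, 3, 5 or 6 (adjusted p 0.0503 to 0.115), and without the 3 libraries with both Xist and Ddx3y (0.0653). Notch1-/- libraries spread from 0.163 to 0.684 CPM with a median of 0.422 (-0.40 ± 0.48, edgeR adjusted p = 0.539), with 2 of 6 in the range of the double mutants. The Notch2-/- libraries lay at 0.502, 0.304, 0.467, 0.507 and 0.435 CPM (-0.27 ± 0.50, edgeR adjusted p = 0.811).

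Lef1 and Sp5 had the 2 largest fitted decreases, and the RefSeq promoter windows of both (GRCm38.p6, 250 bases before to 50 bases after a start site, plus strand, 5′ to 3′) are shown to compare their TCF/LEF and Rbpj core motifs, which stand in capitals. The TCF/LEF core was searched as CTTTGAT or CTTTGAA and the Rbpj core as TGGGAA, each on both strands, with no overlap between the motifs.
Sp5 promoter, chr2:70474673-70474972: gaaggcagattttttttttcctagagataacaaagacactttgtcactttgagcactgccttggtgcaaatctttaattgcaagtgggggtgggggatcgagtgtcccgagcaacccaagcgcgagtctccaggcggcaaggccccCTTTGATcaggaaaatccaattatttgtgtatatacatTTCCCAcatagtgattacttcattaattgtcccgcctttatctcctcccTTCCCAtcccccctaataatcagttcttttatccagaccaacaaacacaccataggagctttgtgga
Lef1 promoter, chr3:131110047-131110346: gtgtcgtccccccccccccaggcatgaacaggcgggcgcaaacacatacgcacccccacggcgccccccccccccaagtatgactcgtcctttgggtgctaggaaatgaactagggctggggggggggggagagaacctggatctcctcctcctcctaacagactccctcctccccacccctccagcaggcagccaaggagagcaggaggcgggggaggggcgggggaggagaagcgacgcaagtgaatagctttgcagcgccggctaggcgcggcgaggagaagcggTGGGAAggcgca
The Sp5 window held CTTTGAT, starting 104 bases before the start site, and the Rbpj core on the opposite strand (written TTCCCA) 66 and 17 bases before it. The Lef1 window shown is the first of 4 that RefSeq start sites give for this gene. It held no TCF/LEF core and 1 Rbpj core, starting 38 bases after the start site. Of the other 3 Lef1 windows, 1 overlaps it and holds the same Rbpj core, 1 holds another 43 bases after its start site, the last holds none, and no TCF/LEF core was in any. Windows were used for 8 of the 10 genes, 14 windows in all. A TCF/LEF core was in a window of 1 gene (Sp5) and an Rbpj core in a window of 3 (Sp5, Lef1 and Tcf7l1). Of all 32851 RefSeq windows of 300 bases, 8.65% held a TCF/LEF core and 25.6% an Rbpj core. A match describes the letters in a window and is not a binding site.

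Apcdd1 (Entrez 494504; chromosome 18) is a membrane glycoprotein that binds Wnt and Lrp5 and inhibits the pathway, and it is strong in brain endothelium. It was lower in 3 of the 4 Notch genotypes. Controls ran from 22.9 to 47.4 CPM (median 35.8) and Notch1-/- libraries from 16.9 to 23.1 CPM (median 17.8). Only the highest Notch1-/- library passed the lowest control, and the change was -0.96 ± 0.18 (edgeR adjusted p = 0.00112). The Notch1-/-Notch2-/- libraries had 22.2, 34.1, 22.5, 17.9 and 17.7 CPM (-0.66 ± 0.19, edgeR adjusted p = 0.01). Rbpj-/- libraries were tight, at 21.3, 24.9, 21.4 and 22.5 CPM (-0.68 ± 0.21, edgeR adjusted p = 0.0295). Of the Notch2-/- libraries, at 28.9, 22.5, 41, 44.2 and 37.6 CPM, replicate 2 was just below the lowest control and the other 4 lay in the control range (-0.05 ± 0.19, edgeR adjusted p = 0.908). Without the 3 libraries with both Xist and Ddx3y the values were -1.06 (adjusted p = 0.000518) for Notch1 loss, -0.76 (0.00316) for the double loss, -0.78 (0.0171) for Rbpj loss and -0.39 (0.369) for Notch2 loss. The Notch1-/- and Notch1-/-Notch2-/- calls held in all 26 fits with a library left out. The Rbpj-/- call was lost without control replicate 1 (adjusted p = 0.0581), 3 (0.0522) or 5 (0.0632) or without Rbpj-/- replicate 1 (0.0702), 2 (0.0552) or 4 (0.0682).

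Axin2 (Entrez 12006; chr11:108917828-108950783), a scaffold of the beta-catenin destruction complex, is a widely used readout of canonical Wnt activity, and it did not pass the test in any genotype. Controls ran from 13.9 to 21.2 CPM with a median of 15.8. The Notch1-/-Notch2-/- libraries had 17.9, 10.5, 24.5, 12.8 and 10.5 CPM, and the Rbpj-/- libraries 10.2, 20.7, 19.1 and 12.9 CPM. The double mutants spread to either side of the control range, and the Rbpj-/- libraries lay within it or below it. Log2 fold changes were -0.13 ± 0.27 for the double loss, -0.09 ± 0.28 for Rbpj loss, 0.24 ± 0.25 for Notch1 loss and 0.03 ± 0.27 for Notch2 loss, with edgeR adjusted p from 0.492 to 0.965. A shift of the size of these SE in either direction would not have been detectable. Notch1-/- libraries ran from 12.2 to 37.1 CPM, and the Notch2-/- libraries had 15.6, 14.4, 20.2, 21.2 and 14.3 CPM.

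Nkd1 and Rnf43, the other feedback inhibitors, did not pass either. Nkd1 (Entrez 93960; chr8:88521342-88594887) binds Dishevelled and dampens the signal. It had 23.6, 7.73, 31.6, 6.55 and 9.74 CPM in Notch1-/-Notch2-/- libraries against 19.1 to 38.2 (median 29.8) in controls, so 3 of 5 were below the control range and 2 within it. The change was -0.84 ± 0.44 (edgeR adjusted p = 0.14), and it passed without Notch1-/-Notch2-/- replicate 3 (-1.25, adjusted p = 0.037). In Notch1-/- libraries Nkd1 was spread from 10.2 to 49.7 CPM (-0.18 ± 0.42), in Rbpj-/- it was 19.1, 30.5, 26.4 and 10.8 CPM (-0.39 ± 0.47), and in Notch2-/- 24.3, 16.7, 49.1, 35.4 and 21.8 CPM (0.05 ± 0.44). Rnf43 (Entrez 207742; chr11:87663087-87735539), a ubiquitin ligase that removes Frizzled from the cell surface, had 26.1, 15.1, 32.8, 15 and 7.33 CPM in Notch1-/-Notch2-/- libraries against 21.1 to 32.4 in controls (-0.48 ± 0.33, edgeR adjusted p = 0.254). Its Rbpj-/- libraries had 10, 35.5, 25.5 and 13.8 CPM (-0.34 ± 0.35), its Notch1-/- libraries 17.6 to 40.3 (0.02 ± 0.31) and its Notch2-/- libraries 29.8, 22.4, 30.1, 44.4 and 18.9 (0.12 ± 0.32).

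Lgr5 (Entrez 14160; chr10:115450314-115587780), a receptor for R-spondins that raises Wnt sensitivity and marks stem cells of several epithelia, went the other way. Controls ran from 8.83 to 21.8 CPM with a median of 12.4. The Notch1-/-Notch2-/- libraries had 35.3, 18, 37.7, 9.42 and 31.9 CPM, 3 of them above every control, and the change was 0.96 ± 0.37 (edgeR adjusted p = 0.0427). This call was lost without Notch1-/-Notch2-/- replicate 1, 3 or 5 or control replicate 2, 3, 5 or 6 (adjusted p 0.0571 to 0.108), and without the 3 libraries with both Xist and Ddx3y (0.0981). Rbpj-/- libraries had 13.7, 28.4, 29.2 and 20.1 CPM (0.75 ± 0.39, edgeR adjusted p = 0.189), and Notch1-/- libraries ran from 5.72 to 33.8 with a median of 23 (0.72 ± 0.35, edgeR adjusted p = 0.123). The Notch1-/- value passed without Notch1-/- replicate 2 (0.94, adjusted p = 0.0252). Notch2-/- libraries were at 13, 17, 13.9, 18.8 and 17.6 CPM (0.24 ± 0.37). The Lgr5 locus overlaps A930009A15Rik, at a mean of 17.7 CPM, and reads of both genes cannot be told apart without the strand setting of the count.

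Tcf7l2 (Entrez 21416; chr19:55741797-55933659), a TCF factor that marks newly differentiating oligodendrocytes in the brain, rose with the double loss. The Notch1-/-Notch2-/- libraries had 47.4, 59.8, 35.3, 62.7 and 59.8 CPM against 18.9 to 40.2 (median 27.7) in controls (0.90 ± 0.33, edgeR adjusted p = 0.0351). Of these, 4 of 5 were above every control. The call was lost without control replicate 1, 3, 4 or 5 or Notch1-/-Notch2-/- replicate 2, 4 or 5 (adjusted p 0.0546 to 0.0763), and without the 3 libraries with both Xist and Ddx3y (0.0535). Rbpj-/- libraries, at 28, 25.1, 30.2 and 33.4 CPM, lay among the controls (0.03 ± 0.35, edgeR adjusted p = 0.959). Notch1-/- libraries ran from 19 to 36 CPM apart from replicate 2, at 106 CPM (0.41 ± 0.31, edgeR adjusted p = 0.326), and Notch2-/- libraries were at 23.9, 23.7, 19.9, 28.7 and 21.4 CPM (-0.28 ± 0.33, edgeR adjusted p = 0.69). Replicate 2 of Notch1-/- also had the highest summed level of 10 markers of newly formed oligodendrocytes, 17337 CPM against 2909 to 9404 in the other 25 libraries. That sum was 3669 to 6392 CPM in Notch1-/-Notch2-/- libraries and 3904 to 9404 in controls. The part of these cells in the Tcf7l2 level was not tested.

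Tcf7l1 (Entrez 21415; chr6:72626371-72789045), the TCF factor that acts mainly as a repressor, had 16.5, 20.3, 6.04, 15.2 and 12.6 CPM in Notch1-/-Notch2-/- libraries. Of these, 4 were above the controls, which ran from 6.63 to 9.88 CPM, and 1 was below them (0.72 ± 0.31, edgeR adjusted p = 0.0695). The value passed without Notch1-/-Notch2-/- replicate 3 (0.91, adjusted p = 0.02), without Notch1-/- replicate 2 (0.73, 0.0215), with only the compared libraries (0.71, 0.0378) and by limma voom (0.68, 0.0351). Rbpj-/- libraries were split in the same manner, at 17.7, 10.9, 6.1 and 15.3 CPM (0.54 ± 0.33, edgeR adjusted p = 0.263). In Notch1-/- libraries Tcf7l1 ran from 6.05 to 9.76 CPM apart from replicate 2, at 21.4 (0.18 ± 0.30), and in Notch2-/- libraries it was 9.63, 6.81, 7.92, 6.75 and 7.47 CPM (-0.15 ± 0.31). Tcf7 (Entrez 21414; chr11:52246527-52283383), the TCF factor best known from T cells, was the steadiest of the 10. It lay between 4.43 and 11.5 CPM in all 26 libraries, with fitted changes of -0.12 ± 0.22 (Rbpj-/-), 0.06 ± 0.20 (Notch1-/-Notch2-/-), 0.12 ± 0.19 (Notch1-/-) and 0.00 ± 0.20 (Notch2-/-). Its locus overlaps the end of Skp1, at a mean of 363 CPM, so part of its count may belong to that gene. The T cell receptor genes Cd3d, Cd3e and Cd3g were at 0 to 1.19 CPM in every library.

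**Figure D3:**
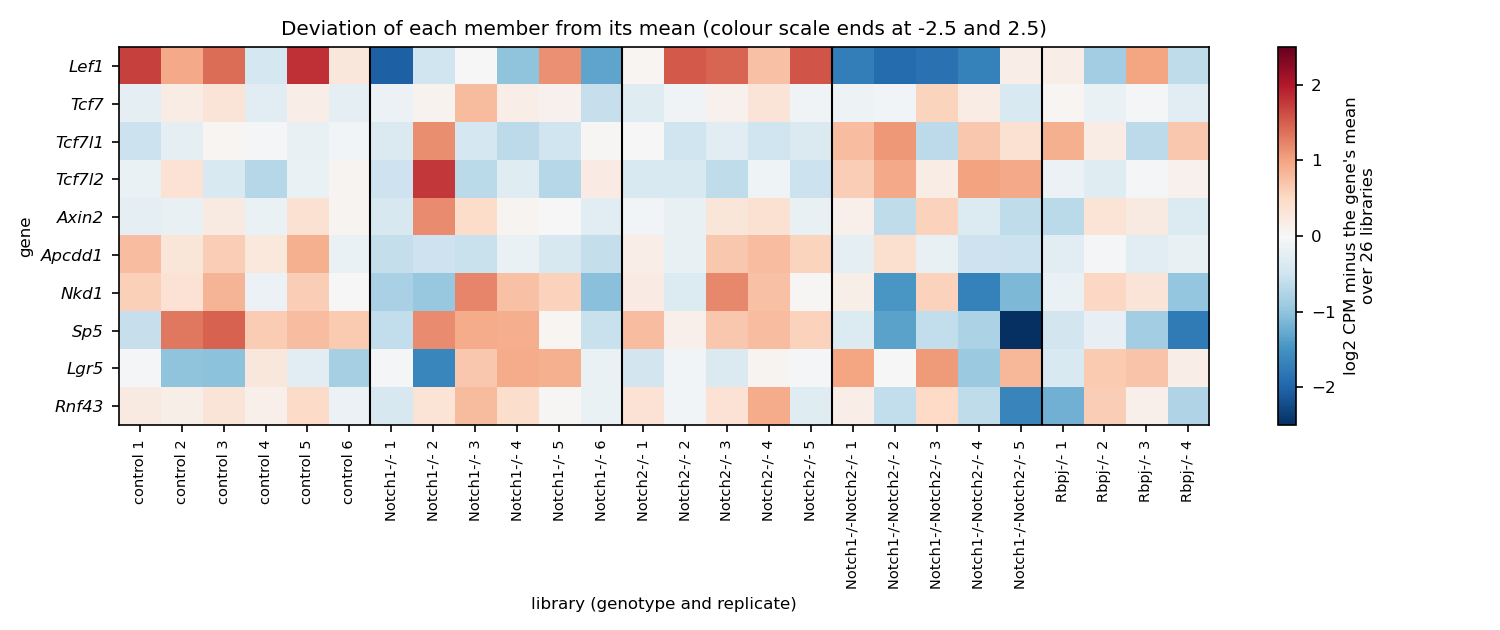
Log2 CPM of each gene in each library minus the gene's mean over the 26 libraries (colour, with scale ends at -2.5 and 2.5). Rows are the 10 genes and columns the libraries by genotype. Tcf7l1 and Tcf7l2 share their high library in Notch1-/- (replicate 2), and Nkd1, Sp5 and Rnf43 are low together in several Notch1-/-Notch2-/- libraries.

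Between mutant genotypes, 4 of the 10 genes were called in Notch1-/-Notch2-/- against Notch2-/-, where 17.4% of all genes were called in either direction. Lef1 (-2.51 ± 0.63, edgeR adjusted p = 0.00953), Sp5 (-1.88 ± 0.57, 0.0244) and Apcdd1 (-0.61 ± 0.20, 0.0375) were lower with both receptors lost, and Tcf7l2 was higher (1.17 ± 0.35, 0.0229). Lef1 and Apcdd1 overlapped between these groups and Sp5 and Tcf7l2 did not, and the share of all genes without overlap is not given here. Without the 3 libraries with both Xist and Ddx3y, which leaves 3 Notch2-/- libraries, the values were -0.38 for Apcdd1 (adjusted p = 0.262), -1.79 for Sp5 (0.105) and 1.20 for Tcf7l2 (0.0985). Lef1 was called in all 26 fits with a library left out. The other calls were lost without Notch1-/-Notch2-/- replicate 2 (Sp5 0.0639, Tcf7l2 0.0515) or 4 (Sp5 0.0508, Tcf7l2 0.0593, Apcdd1 0.114) and without Notch2-/- replicate 3 (Tcf7l2 0.0554, Apcdd1 0.0918). Apcdd1 was also lost without Notch2-/- replicate 4 (0.102) or 5 (0.0729) or Notch1-/-Notch2-/- replicate 1 (0.0639), 3 (0.0559) or 5 (0.0927). Tcf7l1, at 0.87 ± 0.33 (edgeR adjusted p = 0.0653), passed without Notch1-/- replicate 2 (0.0181), Notch1-/-Notch2-/- replicate 3 (0.0196) or Rbpj-/- replicate 3 (0.0474). Notch1-/- differed from Notch2-/- in Apcdd1 alone among the 10 (-0.90 ± 0.19, edgeR adjusted p = 0.00824, where 3.09% of all genes were called). That value was -0.67 (adjusted p = 0.116) without the 3 libraries. Lef1 stood at -1.50 ± 0.57 there (edgeR adjusted p = 0.15) and passed without Notch1-/- replicate 5 (0.0267) and by limma voom (0.0061).

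The losses of Rbpj, of Notch1 and of both receptors were not separated by any of the 10 genes in the edgeR test. Rbpj-/- against Notch1-/-Notch2-/- gave 0 calls (0.794% of all genes, with 2 of the 10 at an unadjusted p under 0.05, Lef1 and Tcf7l2, and 0 by DESeq2 or limma voom). In that comparison Tcf7l2 stood at 25.1 to 33.4 CPM in Rbpj-/- and 35.3 to 62.7 in Notch1-/-Notch2-/- libraries, which did not overlap (-0.86 ± 0.37, edgeR adjusted p = 0.342), and it passed without Notch1-/- replicate 2 (0.0443). Rbpj-/- against Notch1-/- gave 0 calls (0.263% of all genes, 1 at an unadjusted p under 0.05, 0 by DESeq2 or limma voom) and against Notch2-/- also 0 (1.7% of all genes, 2 at an unadjusted p under 0.05, 0 by DESeq2 or limma voom). Notch1-/-Notch2-/- against Notch1-/- gave 0 calls (0.64% of all genes, 1 at an unadjusted p under 0.05, which was Sp5, 0 by DESeq2 and 1 by limma voom, which was Tcf7l2). Without Notch1-/- replicate 2, Tcf7l2 passed there too (1.13, edgeR adjusted p = 0.00598). The departure of the double loss from the sum of the single losses gave 0 calls (0.0768% of all genes, 0 at an unadjusted p under 0.05, 0 by DESeq2 and 1 by limma voom), with Sp5 at -1.48 ± 0.73 (edgeR adjusted p = 0.397) the largest. Tcf7l2 was the gene called by limma voom (1.34 ± 0.30, adjusted p = 0.0164), and it passed in edgeR without Notch1-/- replicate 2 (1.41, 0.0151).

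Endothelial genes were lower in Notch1-/-, Notch1-/-Notch2-/- and Rbpj-/- libraries. Summed over 15 endothelial genes, the level ran from 51.2 to 183 CPM in controls (median 94.8) and 43.5 to 129 in Notch2-/- (median 87.9). Notch1-/- libraries summed to 18.1 to 51.4 CPM (median 27.2), Notch1-/-Notch2-/- libraries to 21.9 to 38.9 (median 35.1) and Rbpj-/- libraries to 29 to 48.9 (median 41.5). The last 2 genotypes did not overlap with the controls, and without the 3 libraries with both Xist and Ddx3y the ranges of controls and Notch2-/- were the same. Of the 15 genes, 13 fell and 1 rose with the double loss (median -2.77), 11 fell with Notch1 loss (median -2.27) and 8 with Rbpj loss (median -1.49). Over all genes 18.8% fell and 18.3% rose with the double loss, and 13.5% fell with Notch1 loss and 7.25% with Rbpj loss. With Notch2 loss 0 passed by edgeR, DESeq2 or limma voom and 0 had an unadjusted p under 0.05 (median -0.52). Without those 3 libraries the counts were again 13, 11, 8 and 0 down and 1 up, the last with the double loss. Over all genes 16.3%, 10.7%, 5.22% and 0.0254% then fell, and 15.9% rose with the double loss. No endothelial marker was at 0 throughout a genotype: Pecam1 was at 3.22 to 16.7 CPM in controls and 0.816 to 2.49 in Notch1-/-Notch2-/-. Not every marker was lower. Erg was at 1.71 to 3.47 CPM in controls and 4.55 to 11.1 in Notch1-/-Notch2-/-, and Egfl7 at means of 4.23 and 5.43 CPM. In such bulk samples fewer endothelial cells and less RNA per endothelial cell cannot be told apart. Within the 6 controls, Lef1 and the endothelial sum had the same order. Replicates 5 and 1, with the highest sums (183 and 160 CPM), had the highest Lef1 (2.4 and 2.2 CPM), and replicate 4, with the lowest sum, had the lowest (0.457 CPM). Replicates 5 and 1 also had the highest Apcdd1, 47.4 and 44.3 CPM. Axin2 showed no such order, with 21.2 and 13.9 CPM in replicates 5 and 1. Control replicate 4 also had the lowest microglia and mature oligodendrocyte sums (362 and 9271 CPM). In no mutant genotype did Lef1 keep the full order of the endothelial sum. Replicate 5 was highest in both in Notch1-/- and in Notch2-/-. Rbpj-/- replicate 4 had the highest sum (48.9 CPM) with Lef1 at 0.395 CPM. Notch1-/-Notch2-/- replicate 2 had the highest sum (38.9 CPM) and the lowest Lef1 (0.132 CPM).

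Markers of mural cells and fibroblasts, cells of the vessel wall and the meninges, varied widely within every genotype. Summed over 16 genes they ran from 233 to 1043 CPM in controls, 53.7 to 1163 in Notch2-/-, 21.7 to 1502 in Notch1-/-, 23.1 to 1064 in Rbpj-/- and 26.6 to 397 with both receptors lost. By edgeR 4 of the 16 fell with the double loss (median -1.74), 6 with Notch1 loss, 3 with Rbpj loss and 0 with Notch2 loss (2 at an unadjusted p under 0.05, 0 by DESeq2 or limma voom), and 0 rose in any of these. Over all genes 18.8%, 13.5%, 7.25% and 0.166% fell in these comparisons, so the count with the double loss was near that share. In 3 genotypes the library with the highest sum was also the one with the most Lef1. These were Notch1-/- replicate 5 (1502 CPM, against 21.7 to 67.1 in the other 5) with Lef1 at 1.47 CPM, Rbpj-/- replicate 3 (1064 CPM) with Lef1 at 1.31 CPM and Notch1-/-Notch2-/- replicate 5 (397 CPM, against 26.6 to 105) with Lef1 at 0.718 CPM. Control replicate 6 had the highest mural and fibroblast sum of its group and the second lowest Lef1, 0.783 CPM. The part of these cells in the Lef1 level was not tested.

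**Figure D4:**
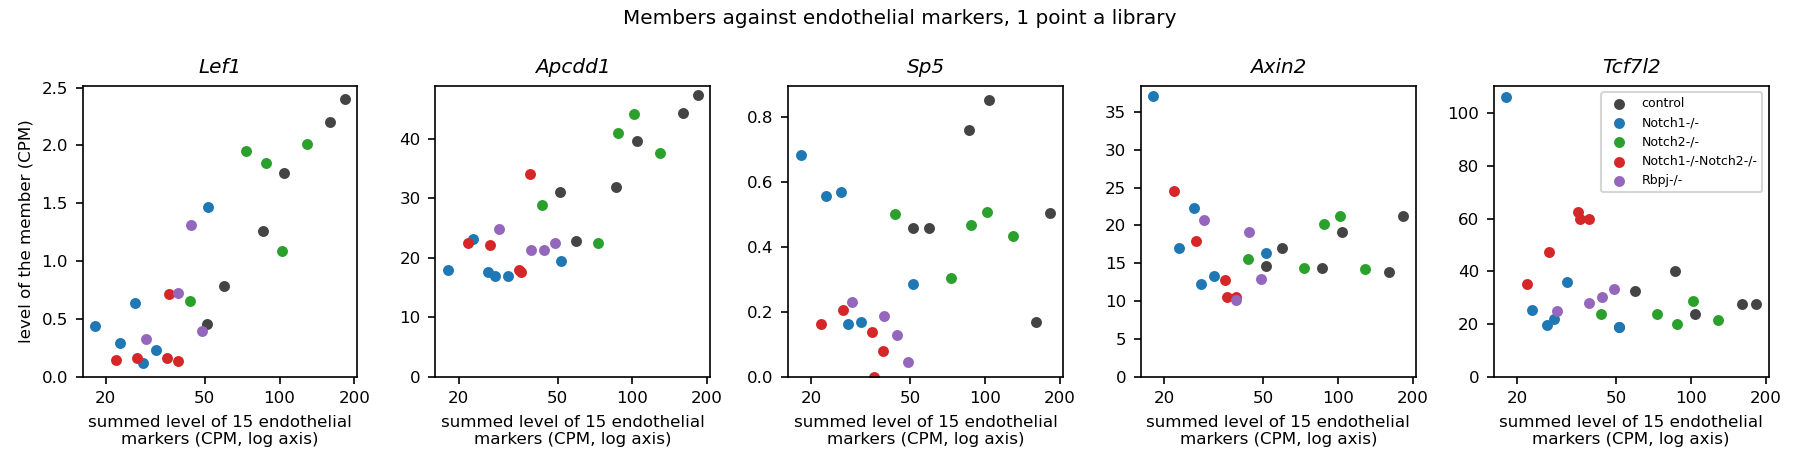
Level of 5 of the genes in CPM (vertical axis, from 0) against the summed level of 15 endothelial markers (horizontal log axis, CPM), 1 point a library, coloured by genotype. Over all libraries together Lef1 and Apcdd1 climb with the endothelial sum, which itself differs between genotypes. Sp5 is at 0 to 0.23 CPM in Notch1-/-Notch2-/- and Rbpj-/- libraries and at 0.684 CPM in the Notch1-/- library with the lowest sum, 18.1 CPM.

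When the mean log2 level of the endothelial markers was added to the fit as a covariate, the double-loss change of Lef1 was -0.32 ± 0.71 (edgeR adjusted p = 0.809), that of Apcdd1 -0.17 ± 0.29 (0.747) and that of Tcf7l2 0.40 ± 0.53 (0.661). Apcdd1 was at -0.39 ± 0.32 (0.62) for Notch1 loss and -0.33 ± 0.25 (0.474) for Rbpj loss. Sp5 kept a call, at -3.11 ± 0.82 (0.0291) for the double loss, and was at -2.53 ± 0.72 (0.0829) for Rbpj loss. Lgr5 was at 1.15 ± 0.58 (0.219). The covariate also cut the share of all genes called in the double-loss comparison from 37.1% to 6.02%. That share went from 26.7% to 0.0704% for Notch1 loss and from 15.2% to 0.64% for Rbpj loss. Since the endothelial sums of Notch1-/-Notch2-/- and Rbpj-/- libraries did not overlap with those of controls, genotype and endothelial content cannot be told apart in this design, and whether the RNA of Lef1 and Apcdd1 came from vessel or tumour cells was not tested.

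Microglia and mature oligodendrocyte markers also differed between genotypes. The 15 microglia and macrophage genes summed to 362 to 1525 CPM in controls and 306 to 703 in Notch2-/-, against 53.8 to 259 in Notch1-/- libraries, 48.7 to 157 with both receptors lost and 129 to 226 without Rbpj. Of these 15 genes 15 fell with Notch1 loss, 14 with the double loss and 13 with Rbpj loss, where 13.5%, 18.8% and 7.25% of all genes fell. With Notch2 loss edgeR called 0 (8 at an unadjusted p under 0.05), DESeq2 5 and limma voom 8, with a median of -1.16. By edgeR 0.166% of all genes fell there. The shares of all genes by unadjusted p, DESeq2 or limma voom are not given here. The 14 mature oligodendrocyte genes summed to 9271 to 24927 CPM in controls. Rbpj-/- libraries summed to 3252 to 8966 CPM and those with the double loss to 2038 to 5640 CPM. Notch1-/- libraries summed to 2180 to 5756 CPM apart from replicate 2, at 20086 CPM. Notch2-/- libraries were split, at 6485, 2388, 20322, 17376 and 13515 CPM. Of the 14 genes 14 fell with the double loss, 11 with Notch1 loss and 10 with Rbpj loss, and with Notch2 loss 0 passed by edgeR (0 at an unadjusted p under 0.05, 0 by DESeq2, 5 by limma voom). Over all genes 18.8%, 13.5%, 7.25% and 0.166% fell by edgeR in these comparisons. Neither the microglia nor the mature oligodendrocyte sums overlapped between controls and Notch1-/-Notch2-/- libraries. Genotype and these scores therefore cannot be told apart, and fits with them are given as a description only. With the microglia score as a covariate, the fitted double-loss value of Tcf7l2 was 2.81 ± 0.48 (edgeR adjusted p = 0.00879), against 0.90 ± 0.33 without it. Lgr5 was at -0.35 ± 0.68 (0.825), Lef1 at -2.72 ± 1.37 (0.325), Sp5 at -2.07 ± 1.03 (0.317) and Apcdd1 at -0.21 ± 0.37 (0.809). With the oligodendrocyte score, Lef1 was at -1.62 ± 0.96 (0.472), Sp5 at -1.18 ± 0.80 (0.547), Tcf7l2 at 1.78 ± 0.48 (0.0657), Lgr5 at 0.78 ± 0.60 (0.607) and Apcdd1 at -0.13 ± 0.29 (0.89). Apcdd1 thus lost its call with each of the 3 scores. The microglia and oligodendrocyte scores left 0.576% and 1.22% of all genes called in the double-loss comparison. Astrocyte markers were lower as well, at 425 to 947 CPM summed over 12 genes in Notch1-/-Notch2-/- against 1014 to 2039 in controls. Among them was Gja1, the connexin of astrocytes, at 1.09 to 9.43 CPM against 16.7 to 62.5. No fit held an astrocyte score, and the part of these cell types in the Wnt results was not tested.

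**Figure D5:**
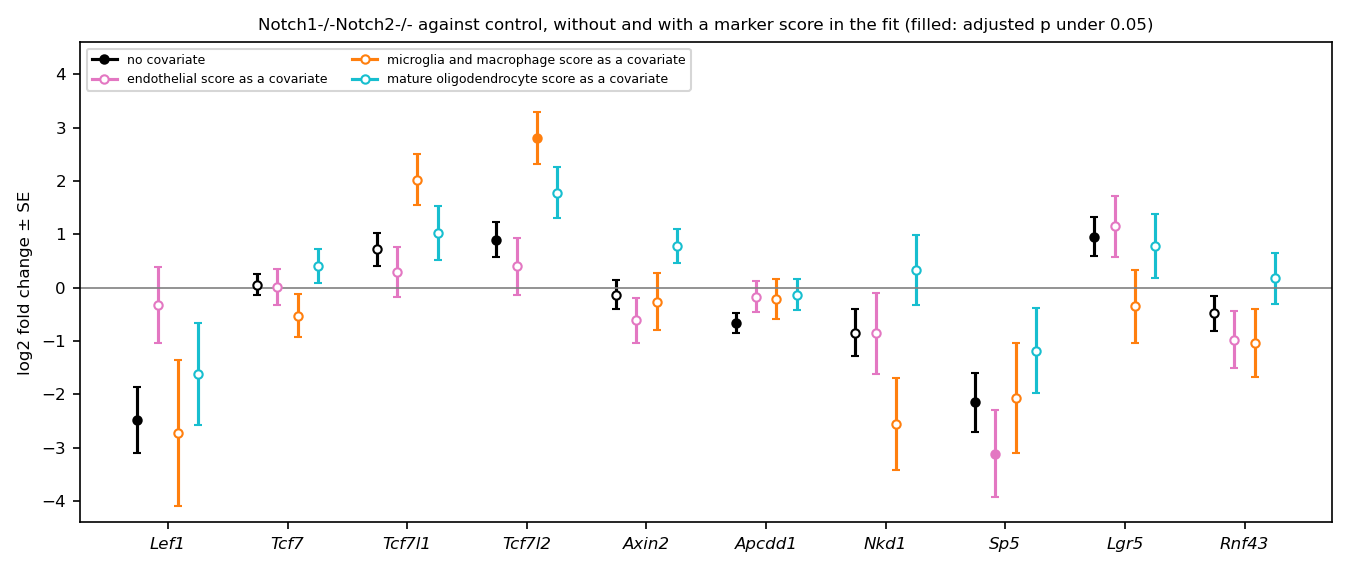
Log2 fold change of the 10 genes in Notch1-/-Notch2-/- against control with its standard error (vertical axis), from the fit without a covariate and from 3 fits that each add a marker score. Filled symbols have an edgeR adjusted p under 0.05. With the endothelial score Lef1 is at -0.32 and Sp5 at -3.11.

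The genes whose log2 CPM was most like that of a Wnt gene over the 26 libraries are given as a description, since all values share libraries and genotypes. For Lef1 they were Gja1 (Pearson r = 0.91), Egflam (0.90) and Stard8 (0.89), and with genotype means taken off St6galnac2 (0.82), Gja1 (0.81) and Egflam (0.81). For Apcdd1 they were Ntsr2 (0.92), Sel1l3 (0.88) and Ablim1 (0.87), and with genotype means off Ntsr2 (0.83), Tdrp (0.77) and Carns1 (0.75). Among the 50 genes most like Apcdd1, a number chosen after the values were seen, were 7 of the 15 endothelial markers (Esam, Flt1, Pecam1, Ptprb, Robo4, Sox18 and Tek) and 4 of 16 blood-brain barrier genes. They also held 2 of 16 mural and fibroblast markers (Higd1b and Kcnj8), the microglia marker Gpr34 and the astrocyte marker Mlc1. Among the 50 most like Lef1 were 3 of the 15 endothelial markers (Cdh5, Emcn and Eng), 2 of 12 astrocyte markers (Gja1 and Gjb6) and the barrier gene Foxf2. The 50 most like Axin2 held no gene of any of these lists. Genotype means were left in for these sets of 50, so genes that change in the same genotypes are alike for that reason too. Sp5 was most like Tuba4a (0.84), Fam122a (0.82) and Dusp3 (0.82), and with genotype means off like Cry2 (0.86), Cirbp (0.80) and Fam189b (0.76).

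For Tcf7l2 the most alike were Sh3rf1 (r = 0.91), Srpk3 (0.89) and the Groucho co-repressor Tle4 (0.89), and with genotype means off Lats2 (0.90), Elf1 (0.89) and Rnf144a (0.89). Tcf7l1 was most like Micall2 (0.87), Inava (0.85) and Wwp2 (0.85), then Inava, Micall2 and Tctn2 (all 0.86). Nkd1 was most like Meox1 (0.91), Nptx2 (0.90) and Syt13 (0.89), the same 3 with genotype means off. Rnf43 was most like Nr2e1 (0.85), a transcription factor of neural stem cells, Sstr1 (0.82) and Slc27a1 (0.79), then Nr2e1 (0.87), Sstr1 (0.83) and Hapln1 (0.81). For Axin2 the named genes were Ankrd13d (0.80) and Amer3 (0.77), then Iffo1 (0.82) and Sema5b (0.79). Lgr5 was most like Polg (0.84), Grip2 (0.83) and Snx25 (0.80), then Pam (0.92), Lrrn4 (0.91) and Nt5e (0.91). Tcf7 had the weakest likeness, with Cirbp (0.59), Nat8f3 (0.58) and Cry2 (0.57), then Tmod1 (0.75), Nat8f3 (0.73) and Mfng (0.69). Among the 10 genes themselves, the highest r were 0.78 for Axin2 and Rnf43, 0.72 for Nkd1 and Rnf43 and 0.72 for Sp5 and Rnf43, and these pairs had 0.78, 0.67 and 0.63 with genotype means off. Not every feedback inhibitor was alike: Apcdd1 had r of 0.09 with Axin2, 0.37 with Rnf43 and 0.46 with Nkd1. Tcf7, which is no feedback inhibitor, had r of 0.51 with Axin2, 0.52 with Nkd1 and 0.49 with Rnf43. Tcf7l1 and Tcf7l2 went together (0.69, and 0.62 with genotype means off) and both ran against Nkd1 (-0.65 each, and -0.56 and -0.52). Lef1 and Apcdd1 were at 0.56, and at 0.11 with genotype means off.

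The rest of the pathway was read from 6 lists with 125 genes, of which 104 passed the filter. With the double loss 19 rose and 18 fell (18.3% and 18.8% of all genes), with Notch1 loss 19 and 9 (13.2% and 13.5% of all genes) and with Rbpj loss 13 and 8 (7.97% and 7.25% of all genes). Without the 3 libraries with both Xist and Ddx3y, where 105 of these genes were tested, 17 rose and 16 fell with the double loss (15.9% and 16.3% of all genes), 12 and 8 with Notch1 loss (9.24% and 10.7%) and 6 and 7 with Rbpj loss (4.27% and 5.22%). Each gene named below as called in the double-loss comparison kept that call without them. With Notch2 loss edgeR called 0 (18 at an unadjusted p under 0.05), DESeq2 1 and limma voom 13. By edgeR 0.166% of all genes fell and 0.128% rose there. The shares of all genes by unadjusted p, DESeq2 or limma voom are not given here. The 18, 1 and 13 therefore cannot be compared with other genes. Wnt ligands and their helpers were the list in which most calls went down: 9 of 14 tested fell with the double loss and 0 rose (median -1.44, against 0.01 over all genes, of which 18.8% fell and 18.3% rose). Without the 3 libraries it was 8 of 13. Ndp, which encodes the ligand Norrin, fell from 17.1 ± 4.09 CPM in controls (SD, n = 6) to 4.35 ± 1.65 in Notch1-/-Notch2-/- (n = 5; -1.97 ± 0.27, edgeR adjusted p = 2.07e-05). The groups did not overlap, at 10.9 to 22 and 1.97 to 6.44 CPM. Ndp also fell with Notch1 loss (-1.38) and Rbpj loss (-1.26). Wls, the carrier that Wnt proteins need for secretion, fell from 113 ± 27 to 48.7 ± 4.47 CPM (-1.21 ± 0.26, edgeR adjusted p = 0.00102). Wnt3 fell from 4.31 ± 1.42 to 0.759 ± 0.598 CPM (-2.49 ± 0.53, 0.00108), and Rspo1, a ligand of Lgr5, from 0.696 ± 0.463 to 0.0857 ± 0.0615 CPM (-2.98 ± 0.69, 0.00201).

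Of 20 receptors and co-receptors 3 rose and 4 fell with the double loss, where 18.3% of all genes rose and 18.8% fell, and without the 3 libraries 2 rose and 3 fell. Fzd1 rose from 28.8 ± 9.37 to 58.7 ± 8.51 CPM with the double loss (1.03 ± 0.23, edgeR adjusted p = 0.00137) and Reck, which with Adgra2 reads Wnt7 on endothelial cells, rose from 14.5 ± 3.99 to 26.9 ± 4.66 CPM (0.89 ± 0.27, 0.0127). Fzd8 (-0.86 ± 0.20, 0.00227) and Fzd9 (-0.85 ± 0.26, 0.0142) fell. Of 16 inhibitors 3 fell and 2 rose, against those same shares over all genes (3 and 1 without the 3 libraries). Sostdc1, which blocks Lrp5 and Lrp6, fell from 3.69 ± 1.03 to 0.717 ± 0.362 CPM (-2.35 ± 0.31, 1.55e-05). Frzb, a secreted Frizzled-related protein, fell by 1.16 ± 0.32 (0.00717) and Notum, an enzyme that removes the lipid of Wnt proteins and a Wnt target itself, by 2.59 ± 0.73 (0.00805), while Draxin rose by 0.78 ± 0.24 (0.0143). The cytoplasmic machinery had 5 of 20 up and 0 down with the double loss, where 18.3% of all genes rose and 18.8% fell (4 and 0 without the 3 libraries), among them the kinase Csnk1e (0.66 ± 0.13, 0.000435), Amer1 (0.95 ± 0.23, 0.00312) and the Dishevelled genes Dvl2 (0.65 ± 0.18, 0.00672) and Dvl1 (0.51 ± 0.15, 0.0101). Nuclear partners had 4 of 16 up and 0 down, with or without the 3 libraries: Tle4 (0.61 ± 0.17, 0.00656), Tbl1xr1 (0.61 ± 0.18, 0.00975), Ctbp2 (0.59 ± 0.19, 0.0158) and Chd8 (0.53 ± 0.18, 0.0238).

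Among 18 other genes known as Wnt targets, 5 rose and 2 fell with the double loss (18.3% and 18.8% of all genes), 8 rose and 0 fell with Rbpj loss (7.97% and 7.25%) and 6 rose and 0 fell with Notch1 loss (13.2% and 13.5%). Without the 3 libraries with both Xist and Ddx3y, 20 such genes were tested, and 6 rose and 2 fell, 4 rose and 0 fell, and 5 rose and 0 fell in these comparisons. Myc rose from 31.1 ± 7.52 CPM in controls to 106 ± 29.3 in Notch1-/-Notch2-/- (1.77 ± 0.22, edgeR adjusted p = 8.65e-06), 75.8 ± 21.1 in Notch1-/- and 88.6 ± 26.9 in Rbpj-/-, and was at 33.4 ± 2.13 in Notch2-/-. Jun rose from 91.1 ± 8.48 to 240 ± 40 CPM with the double loss (1.40 ± 0.17, 6.27e-06). Both are induced by many signals besides Wnt. Tnfrsf19, a receptor of the TNF family, fell from 188 ± 20.8 to 81.4 ± 30.7 CPM (-1.21 ± 0.24, 0.000556) and Dact1, a Dishevelled-binding protein, from 22.6 ± 4.07 to 10.5 ± 3.43 CPM (-1.10 ± 0.22, 0.00075). With Rbpj loss the latter 2 did not pass (-0.33 ± 0.25, adjusted p = 0.38, and -0.63 ± 0.24, 0.0715).

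Of 16 genes tied to endothelial Wnt signalling and the blood-brain barrier, 11 fell and 1 rose with the double loss, 10 fell and 1 rose with Notch1 loss, 7 fell and 1 rose with Rbpj loss and 0 passed with Notch2 loss by edgeR (1 at an unadjusted p under 0.05, 0 by DESeq2, 1 by limma voom). Over all genes 18.8% fell and 18.3% rose with the double loss, 13.5% and 13.2% with Notch1 loss and 7.25% and 7.97% with Rbpj loss. Without the 3 libraries 10, 10, 7 and 0 fell and 0 rose. Slco1c1, the thyroxine carrier of brain vessels, fell from 34.4 ± 20.6 to 1.71 ± 0.515 CPM with the double loss (-4.33 ± 0.50, edgeR adjusted p = 4.71e-06). Slco1a4 (-4.42 ± 0.68, 7.35e-05), the tight junction gene Ocln (-3.57 ± 0.55, 6.95e-05) and the efflux pump Abcb1a (-2.22 ± 0.38, 0.000172) fell too. Other genes of the list were not lower. Mean Slc7a5 was 118 CPM in controls, 222 in Notch1-/-, 222 in Notch1-/-Notch2-/- and 205 in Rbpj-/- libraries. With the double loss Ppard and Slc16a1 were at means of 25.8 and 109 CPM, against 20.8 and 97.3 in controls. The median log2 fold change was -1.83 for this list and -2.77 for the general endothelial list.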

How the data were processed

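Levels of 24454 genes were read from the table of gene counts that the authors deposited, with Entrez identifiers and a gene length. Per the labels' protocols, libraries were made from Trizol RNA with a TruSeq Stranded kit and run on a NextSeq instrument. The submitters' processing notes name STAR and the build mm10. Its version, the tool that counted reads, the gene annotation and the use of strand are not stated there. Identifiers were matched to RefSeq genes (GRCm38.p6) (24374 matched, and the other 80 held 0.348% of counts). Totals were 30868828 to 48103535 counts per library.

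The 10 genes and all lists were chosen with earlier results of these data known. All 26 libraries were fitted together, with genotype as the term, in edgeR 4.0.16 (R 4.3.3), and contrasts took its quasi-likelihood test, with TMM scaling, filterByExpr (15617 genes left) and Benjamini-Hochberg adjustment over those genes at 0.05. The common biological coefficient of variation was 0.368. Standard errors are the log2 fold change over the square root of F, and log2 CPM used a prior count of 2. Pathway genes were named by a rule: up to 4 of each list with the smallest adjusted p in any comparison with control. For likeness, the 3 genes with the highest Pearson r were named, apart from 1 gene for Axin2 that is not reported here. Replicates of a genotype differed well beyond counting error (lowest chi-square per gene 45 over 56 pairs), so none was merged. The script was tested on simulated counts. Alternatives were DESeq2 1.42.0, limma 3.58.1 (voom with quality weights), other scaling and filters, a replicate block, marker scores as covariates, only the compared libraries, and each library left out. Promoter windows come from RefSeq. Sequence was not used for 2 of the 10 genes.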

Additional observations from a re-analysis of the deposited data

Results flagged for a closer look

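In 3 of the 50 groups formed by a gene and a genotype, 1 library stood apart from the others by more than Dixon's critical value, and chance alone flags about 1 group in 20 (2.5 of 50). Lef1 was at 0.718 CPM in Notch1-/-Notch2-/- replicate 5, against 0.132 to 0.164 CPM in the other 4 libraries, with an endothelial sum of 35.8 CPM among theirs (21.9 to 38.9) and a mural and fibroblast sum of 397 CPM above theirs (26.6 to 105). The part of those cells was not tested. Tcf7l2 was at 106 CPM in Notch1-/- replicate 2, against 19 to 36 CPM in the other 5 libraries. Tcf7l1 was at 21.4 CPM in the same library, against 6.05 to 9.76 CPM. That library also held the highest Axin2 of all 26 (37.1 CPM), the lowest Lgr5 (5.72 CPM), the lowest endothelial sum (18.1 CPM) and the highest level of newly formed oligodendrocyte markers, with Enpp6 at 550 CPM. Without it the fit called Tcf7l2 higher in Notch1-/-Notch2-/- than in Notch1-/- (1.13, edgeR adjusted p = 0.00598) and Lgr5 higher in Notch1-/- than in control (0.94, 0.0252).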

How the results depend on the processing

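Against control there were 40 results (10 genes in 4 comparisons), 8 of them calls. Refitted under other settings and tests, they kept direction and side of the threshold in 335 of 428 fits, and with 1 library left out in 966 of 1040. The sign changed in 36 of 120 fits with a marker score, 22 of 308 others and 38 of 1040 with a library left out. Among called values this was Lgr5 alone, at -0.35 (adjusted p = 0.825) for the double loss with the microglia score. Values with no call that changed sign included Lef1, from -1.47 to 0.90 for Notch1 loss and from -1.09 to 0.51 for Rbpj loss with the endothelial score. Lgr5 went from 0.72 to -0.65 for Notch1 loss with the microglia score. With the oligodendrocyte score Nkd1 went from -0.84 to 0.33 and Axin2 from -0.13 to 0.79 for the double loss. Of the 10 genes, the number called in Rbpj-/- against control was 2, and 1 with a filter of 10 CPM in 4 libraries, a replicate block, only the compared libraries, or without the libraries with both Xist and Ddx3y, and 0 with each of the 3 marker scores. In Notch1-/-Notch2-/- against control it was 5, and 3 with that filter or without those libraries, 1 with the endothelial or microglia score and 0 with the oligodendrocyte score. In Notch1-/- against control it was 1, and 2 with DESeq2's size factors, DESeq2's test or the block, 3 by voom and 0 with each score. Over all genes, the endothelial, microglia and oligodendrocyte scores left 0.64%, 0.0192% and 0.147% called with Rbpj loss, from 15.2%. With the double loss they left 6.02%, 0.576% and 1.22%, from 37.1%. With Notch1 loss they left 0.0704%, 0.0448% and 0.967%, from 26.7%. A count of 0 with a score is thus near the share of all genes. Shares with the other tests, scaling, filter or block, or with 1 library left out, are not given here. Nor are those of refitted comparisons between mutants. The counts of the 10 genes under these settings therefore cannot be compared with other genes. In Notch1-/-Notch2-/- against Notch2-/- the number called of the 10 genes was 4, and 2 with the filter or the microglia score. It was 1 with the oligodendrocyte score or without those libraries and 0 with the endothelial score. In Notch1-/- against Notch2-/- it was 1, and 2 by voom and 0 with the endothelial or oligodendrocyte score or without those libraries. Voom made 1 call in Notch1-/-Notch2-/- against Notch1-/- and 1 in the interaction, and the microglia score 1 in Rbpj-/- against Notch1-/-Notch2-/-, where edgeR made 0. The filter leaves 7 of the 10 genes to test, and the cause of the other shifts was not tested. With 1 library left out the counts ran from 0 to 2 for Rbpj-/- against control, 3 to 6 for Notch1-/-Notch2-/-, 1 to 2 for Notch1-/-, 1 to 5 for Notch1-/-Notch2-/- against Notch2-/-, 1 to 2 for Notch1-/- against Notch2-/-, and 0 to 1 for the interaction and for Notch1-/-Notch2-/- against Notch1-/- or Rbpj-/-. All other comparisons stayed at 0.

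Replicate numbers are shared between genotypes, but they did not pair the libraries: deviations of 47 same-number pairs correlated at -0.417 to 0.627 (median -0.0444), 13 above 0.1, and 4 of 26 libraries correlated best with their own number. With the replicate block, 5 of the 10 genes were called in the double-loss comparison, among them Nkd1 (adjusted p = 0.0365) and not Lgr5 (0.0819). Depth limits Sp5 most, at 0 to 36 counts a library, and Lef1, at 5 to 114.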
